A study of Penicillium oxalicum with 9 samples.

Results

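A run of 8 consecutive gene identifiers, POX08686 to POX08693, was strongly expressed in the *rsrA* deletion mutant of *P. oxalicum* and weakly in its parental strain. The members were chosen from the expression values themselves. For each gene, the mean log2(FPKM + 1) of the 3 Δ*ku70* libraries was subtracted from that of the 3 Δ*rsrA* libraries, for the 8550 of 9721 listed genes whose FPKM averaged 1 or more over these 6 libraries. FPKM counts the fragments of a gene relative to the length of its transcript and to all mapped fragments of the library. The longest run of consecutive numbers in which every difference was 3 or more was then taken. All 8 members passed the limit on low values, but POX08688 passed it only through its Δ*rsrA* libraries. The differences between Δ*rsrA* and Δ*ku70* therefore define the run, and they are given below as a description without a test.

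The data comprise 3 strains with 3 libraries each. RNA came from mycelium at 24 h in the inducing medium, to which it had been moved from glucose medium. The mutant Δ*rsrA* lacks POX01907, which the paper gives as the former identifier of *rsrA*, and Δ*rsrB* lacks POX08340, inferred here to be *rsrB* from the sample labels. Both mutants were made in Δ*ku70*, so every strain lacks *ku70*, a gene of non-homologous end joining. The labels call Δ*ku70* WT and name both raw starch and Avicel as carbon source, whereas the paper names commercial starch of corn.

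RsrA is a transcription factor with SANT-like domains that the paper places above *rsrB* in the control of raw starch-degrading enzymes, and RsrB carries a Zn2Cys6 zinc finger, a DNA-binding domain typical of fungi. As general background, filamentous fungi often keep the genes of a single metabolic pathway side by side on a chromosome, and such gene clusters can be almost silent in one condition and expressed together in another. No source used here pairs any of the 8 identifiers with a name, a protein or a position, so no function is given for any member, and it was not tested whether consecutive numbers are neighbours in the genome. The numbering is older than the present one, and the member POX08691 is not the gene that the paper calls POX_g08691, the present locus tag of *rsrB*. POX08691 had an FPKM of 45.24, 41.75 and 37.40 in Δ*rsrB*, where the deleted POX08340 was listed at 0 in all 3 libraries. POX08340 had 30.61 to 35.67 FPKM in Δ*ku70* and 7.28 to 8.26 FPKM in Δ*rsrA*.

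The libraries had FPKM totals of 950456 to 1086112, with 315 to 478 genes listed at 0. The number of reads is not given. Relative depth was estimated from weakly expressed genes with values worth about 1 read in a pair of libraries (17 to 33 genes). For the other 8 libraries the estimate was 0.983 to 1 times Δ*ku70* replicate 2. Only values near the lowest non-zero value of a gene were used. That choice confines the estimate to near 1, so it cannot show whether the depths differ. POX01907 had 0.01, 0.01 and 0.04 FPKM in Δ*rsrA* and 16.52 to 22.87 FPKM in Δ*ku70*. Δ*ku70* replicate 1 stood apart, with a Pearson coefficient of 0.915 and 0.906 with replicates 2 and 3 across genes, against 0.984 between those 2 and 0.977 to 0.994 within the mutants.

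POX08689 had the highest level of the run in Δ*rsrA*. The Δ*rsrA* libraries had 9049.57, 8441.07 and 8654.14 FPKM, against 4.57, 4.00 and 4.97 in Δ*rsrB* and 0.31, 5.91 and 12.79 in Δ*ku70*. Its mean of 8715 ± 309 in Δ*rsrA* was 1375-fold that of 6.34 ± 6.25 in Δ*ku70* (SD, n = 3 each). That ratio rested on the spread of the Δ*ku70* libraries, and it was 932-fold without Δ*ku70* replicate 1 and 2802-fold without replicate 3. POX08689 ranked 7th or 8th of all 9721 genes in each Δ*rsrA* library, and between rank 6153 and rank 8958 in the Δ*ku70* libraries.

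POX08690 and POX08691 were the next highest members in Δ*rsrA*, and they were the only members with an FPKM over 20 outside that strain. The FPKM of POX08690 was 6339.20, 5695.22 and 5576.27 in Δ*rsrA*, against 69.46, 66.14 and 61.69 in Δ*rsrB* and 58.74, 50.66 and 58.48 in Δ*ku70*. For POX08691 the values were 2590.39, 2316.30 and 2141.18 in Δ*rsrA* and 33.89, 24.52 and 31.36 in Δ*ku70*. The mean in Δ*rsrA* was thus 105-fold that in Δ*ku70* for POX08690 and 78.5-fold for POX08691. Both genes had at least 24.52 FPKM in every library, and they ranked between 2433 and 4501 of all genes in the Δ*ku70* libraries.

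POX08688 and POX08692 had values near or under 1 FPKM outside Δ*rsrA*. POX08688 had 818.96, 754.37 and 846.43 FPKM in Δ*rsrA*, against 0.90, 1.23 and 0.80 in Δ*rsrB* and 0.34, 0.68 and 0.98 in Δ*ku70*. POX08692 had 264.35, 261.82 and 392.34 FPKM in Δ*rsrA*, against 0.95, 0.93 and 0.74 in Δ*rsrB* and 1.27, 1.21 and 1.03 in Δ*ku70*. Neither gene exceeded 1.27 FPKM in any of the 6 libraries of Δ*rsrB* and Δ*ku70*. The ratio of the mean FPKM in Δ*rsrA* to that in Δ*ku70* was 1209.9 for POX08688 and 262 for POX08692. Since the read number is unknown, the counting error of these ratios is unknown too.

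The other 3 members, POX08686, POX08687 and POX08693, had low but measurable levels in the parental strain. POX08686 had 929.54, 867.21 and 1037.90 FPKM in Δ*rsrA*, against 4.29, 3.36 and 3.02 in Δ*rsrB* and 1.08, 4.00 and 4.21 in Δ*ku70*. POX08687 had 738.58, 607.86 and 610.21 FPKM in Δ*rsrA*, against 14.13, 9.40 and 7.82 in Δ*rsrB* and 2.04, 7.88 and 6.74 in Δ*ku70*. For POX08693, the last number of the run, the values were 872.73, 755.48 and 859.06 in Δ*rsrA*, against 8.48, 13.14 and 8.04 in Δ*rsrB* and 4.40, 10.24 and 16.92 in Δ*ku70*. Their mean FPKM in Δ*rsrA* was 305-fold, 117-fold and 78.8-fold that in Δ*ku70* for POX08686, POX08687 and POX08693.

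**Figure D1:**
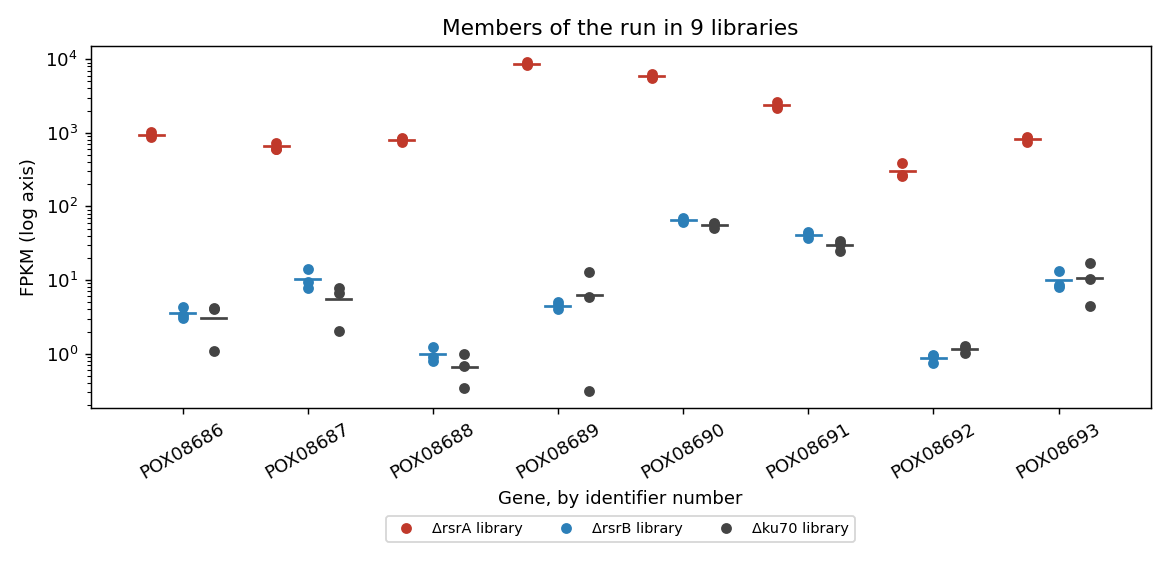
FPKM on a log axis for the 8 members in each library of Δ*rsrA*, Δ*rsrB* and Δ*ku70* (points, 3 libraries per strain, with a line at the mean). The lowest Δ*rsrA* value is 261.82 FPKM (POX08692), and the highest of the other strains is 69.46 FPKM (POX08690 in Δ*rsrB*).

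On the log2(FPKM + 1) scale, the 8 differences between Δ*rsrA* and Δ*ku70* ran from 6.26 for POX08691 to 10.77 for POX08689, with a median of 6.95, beside a median of -0.29 over the 8550 genes compared. The scale understates the change of genes at low FPKM. A difference of 3 or more was found in 62 genes, or 0.725% of those compared, and the members held the first 8 places in the order of all differences. POX02475 came next, at 6.03. In all 8 members the lowest Δ*rsrA* value was above the highest Δ*ku70* value, a pattern found in 15.0% of all genes compared. These values chose the members and support nothing further. The lowest Δ*rsrA* value was still 44.7 times the highest Δ*ku70* value in POX08693 and 769.8 times in POX08688, the smallest and the largest such ratio. Without Δ*ku70* replicate 1, the differences were 5.87 to 9.80, with POX08693 lowest and POX08689 highest.

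The members together took 1.89% to 2.04% of the FPKM total of a Δ*rsrA* library, against 0.0115% to 0.0142% in Δ*rsrB* and 0.0102% to 0.0126% in Δ*ku70*. Within Δ*rsrA*, 3 of the 8 (POX08689, POX08690 and POX08691) were among the 100 highest genes of each library, and none was in the other strains. FPKM is scaled to transcript length, so the members can be ordered by level. In Δ*rsrA* the order was POX08689, POX08690, POX08691, POX08686, POX08693, POX08688, POX08687 and POX08692. The values of POX08686 and POX08693, and those of POX08693 and POX08688, overlapped between libraries, whereas all other neighbours in that order were separate. The order differed in Δ*ku70*, where POX08690 was highest at 56.0 ± 4.59 FPKM and POX08691 second at 29.9 ± 4.85 FPKM (SD, n = 3), followed by POX08693, POX08689, POX08687 and POX08686, each of which overlapped with the next. Between the highest and the lowest member, the mean level differed by 28.5-fold in Δ*rsrA*, by 75.3-fold in Δ*rsrB* and by 83.9-fold in Δ*ku70*.

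The SD between replicates was 3.54% to 11.5% of the mean for 7 members in Δ*rsrA* and 24.4% for POX08692, whose replicate 3 was higher than the other 2. In Δ*rsrB* it was 5.93% to 31.4%. In Δ*ku70* it was 8.21% to 98.6%, with POX08689 the most variable, and the highest Δ*ku70* value of this gene was 41.3 times the lowest. The members differed in the place of Δ*ku70* replicate 1. In 5 members (POX08686, POX08687, POX08688, POX08689 and POX08693), Δ*ku70* replicate 1 was the lowest of the 3 libraries, and the highest was 2.88 to 41.3 times the lowest. In the other 3 (POX08690, POX08691 and POX08692), the highest was 1.16 to 1.38 times the lowest. Replicate 1 was the highest there by little, at 58.74 FPKM against 58.48 FPKM in replicate 3 for POX08690. It had 33.89 FPKM against 31.36 FPKM in replicate 3 for POX08691, and 1.27 FPKM against 1.21 FPKM in replicate 2 for POX08692. Over all genes whose FPKM averaged 1 or more in the 9 libraries, replicate 1 was the lowest Δ*ku70* library in 44.3% and the highest in 37.0%. In Δ*rsrA*, replicate 2 was the lowest for 6 members and replicate 3 for POX08690 and POX08691. Over the same genes as above, replicate 2 was the lowest Δ*rsrA* library in 19.2% and replicate 3 in 46.4%.

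Whether the run was also raised without *rsrB* was examined in the Δ*rsrB* libraries, which played no part in choosing it. The Δ*ku70* libraries did, and low values there favour a positive difference. No member passed the test. Of the 8 members, 7 reached an average FPKM of 1 over the 6 libraries, and 0 had an adjusted p under 0.05 in either direction (limma, Benjamini-Hochberg adjustment over 8597 genes), beside 1.72% raised and 2.23% lowered among all genes tested. POX08688 was under the limit, with a mean of 0.977 FPKM in Δ*rsrB* and 0.667 FPKM in Δ*ku70*. Only 1 member, POX08691, was under 0.05 without adjustment, with 41.5 ± 3.93 FPKM in Δ*rsrB* and 29.9 ± 4.85 FPKM in Δ*ku70* (SD, n = 3 each). Its log2 difference was 0.47 (standard error 0.17, adjusted p = 0.170, limma).

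The differences between Δ*rsrB* and Δ*ku70* over the 8 members ran from -0.21 for POX08692 to 0.91 for POX08687, with a median of 0.24, beside 0.04 over all genes tested. POX08690 and POX08691 had all Δ*rsrB* values above all Δ*ku70* values, as did 17.2% of genes tested, and POX08692 had all of them below, as did 16.0%. For these 3 genes the two-sided exact permutation test of the mean log2(FPKM + 1) gave p = 0.1, the smallest value that 3 libraries against 3 allow. In the same exact test the other 5 had p = 0.2 to 1. The 95% confidence intervals of limma cover the 7 members tested. The widest was that of POX08689, from -1.80 to 2.08, and the highest upper bound among the others was 1.98, for POX08687. Under the alternatives tried, 0 members were called in either direction, but the sign of 3 small differences changed without Δ*ku70* replicate 1. Without that library the difference was -0.83 in place of 0.14 for POX08689, -0.17 in place of 0.26 for POX08686 and -0.41 in place of 0.05 for POX08693. Without Δ*ku70* replicate 3, the difference of POX08689 was 0.87. That of POX08693 was also negative without Δ*rsrB* replicate 2 (-0.15) and with libraries rescaled to the same total (-0.01).

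Set beside Δ*rsrB*, the Δ*rsrA* values were again higher in all 8 members without overlap, a pattern found in 17.0% of the 8491 genes compared. The differences of mean log2(FPKM + 1) were 5.79 (POX08691) to 10.63 (POX08689), with a median of 6.90, beside -0.34 over all genes compared. They are a description, since the Δ*rsrA* libraries chose the members. In FPKM, the mean in Δ*rsrA* was between 56.7 times (POX08691) and 1931 times (POX08689) that in Δ*rsrB*.

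**Figure D2:**
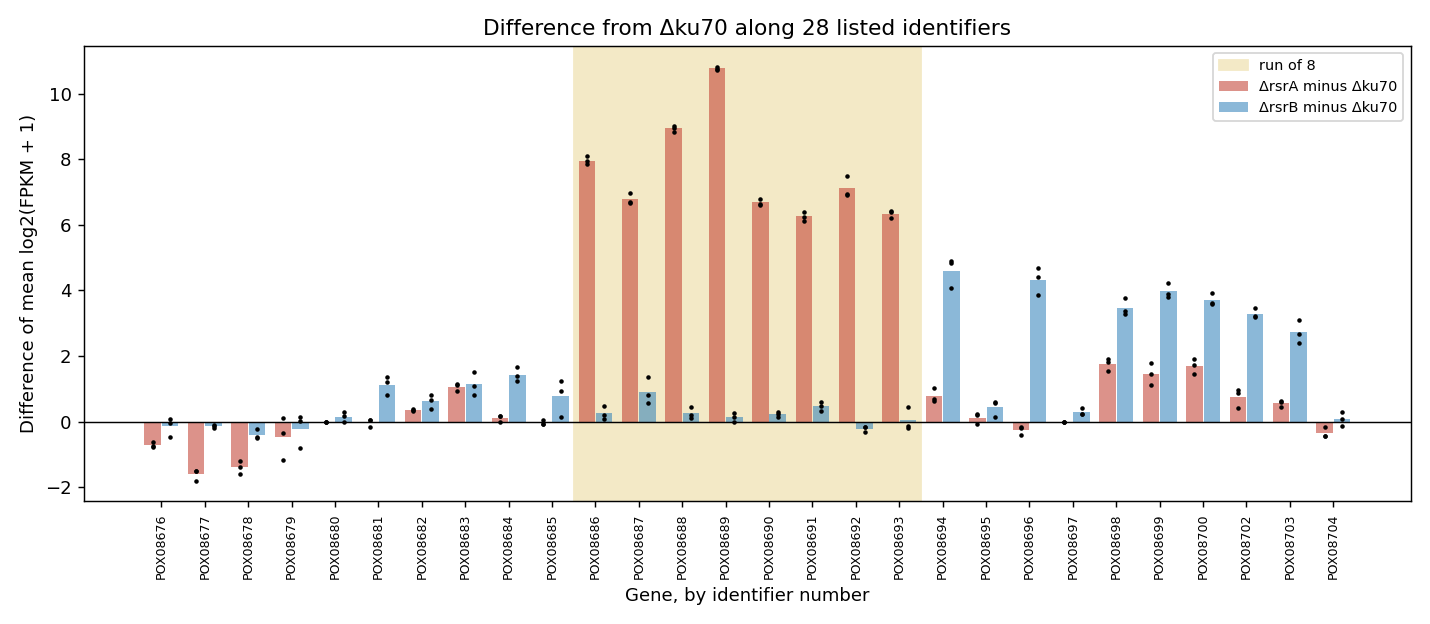
Difference of mean log2(FPKM + 1) from Δ*ku70* (bars) for Δ*rsrA* and Δ*rsrB*, with each mutant library minus the Δ*ku70* mean as a point, along 28 listed identifiers in order of number. The shaded run of 8 holds high bars for Δ*rsrA* only, and the identifiers after it hold bars of 2.73 to 4.60 for Δ*rsrB* at 7 genes.

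The run ended between adjacent numbers on both sides. POX08685, the number before it, had 0.16, 0.08 and 0.08 FPKM in Δ*rsrA* and 0.31, 0.00 and 0.08 FPKM in Δ*ku70*, and was under the limit on low values. POX08694, the number after it, had 2.71, 1.95 and 1.81 FPKM in Δ*rsrA* and 2.29, 0.37 and 0.33 FPKM in Δ*ku70*, a log2 difference of 0.79. These 2 ended the run by their own values and are described only. The weakest member of the run, POX08691, stood at 6.26, and the run had the same length of 8 with limits of 2 and 4. The rule itself separates the members from these 2 numbers, so the distance between them describes the run and does not back the limit of 3.

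Among the 10 listed identifiers before the run (POX08676 to POX08685), levels were mixed, and 5 were under the limit on low values in both comparisons. Of the 5 that were tested in Δ*rsrA*, POX08683 rose and POX08676, POX08677 and POX08678 fell (adjusted p under 0.05, limma), beside 9.74% raised and 29.0% lowered among all genes. POX08683 had 9.29, 8.97 and 7.87 FPKM in Δ*rsrA*, against 12.34, 8.90 and 7.15 in Δ*rsrB* and 3.79, 3.68 and 3.39 in Δ*ku70*. Its log2 difference was 1.07 in Δ*rsrA* (standard error 0.14, adjusted p = 0.00311, limma) and 1.15 in Δ*rsrB* (standard error 0.22, adjusted p = 0.0439, limma). It was the only one of the 5 called in Δ*rsrB*, and that call was lost in 9 of 14 alternatives, with an adjusted p of up to 0.210 (limma), among them the fits without each Δ*rsrB* replicate and without Δ*ku70* replicates 2 and 3. The falls of POX08676 and POX08677 in Δ*rsrA* (log2 differences of -0.72 and -1.60) were lost without any 1 of the Δ*rsrA* replicates, and 1 gene, POX08678, then remained. The call of POX08677 was also lost without Δ*ku70* replicate 2 (adjusted p = 0.0648, limma) and that of POX08676 without Δ*ku70* replicate 3 (adjusted p = 0.0683, limma). Both calls were also lost after median-of-ratios scaling, with adjusted p of 0.0913 for POX08676 and 0.105 for POX08677 (limma). Quantile normalization lost that of POX08676 as well (adjusted p = 0.297, limma), as did the replicate block. The call of POX08677 was also lost without a filter on mean FPKM. The difference of POX08677 was -1.01 when Δ*ku70* replicate 1 was left out. POX08681 and POX08684 stayed under the limit, yet had 1.13 to 2.14 FPKM and 1.37 to 2.21 FPKM in Δ*rsrB*, against at most 0.30 FPKM and 0 FPKM in Δ*ku70*. POX08682, also under the limit, had 0.55 to 1.10 FPKM in Δ*rsrB* and 0.10 to 0.23 FPKM in Δ*ku70*. In all, 4 of these 10 identifiers had every Δ*rsrB* value above every Δ*ku70* value. Only POX08683 of these was among the 5 identifiers that passed the limit. The same pattern was found in 17.2% of all genes that passed it. That share does not cover POX08681, POX08682 and POX08684, so the count of 4 cannot be set against it.

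Of the 10 listed identifiers after the run (POX08694 to POX08704, of which POX08701 is not in the lists), 8 passed the limit in Δ*rsrB* and Δ*ku70*. Of these, 7 rose in Δ*rsrB* (POX08694, POX08696, POX08698, POX08699, POX08700, POX08702 and POX08703) and 0 fell, beside 1.72% raised among all genes. The eighth, POX08695, had 3.08, 3.01 and 1.96 FPKM in Δ*rsrB* and 1.17, 1.86 and 2.16 FPKM in Δ*ku70*, with an overlap between the strains and a log2 difference of 0.43 (adjusted p = 0.322, limma). POX08694 had 50.76, 52.67 and 29.77 FPKM in Δ*rsrB* and 2.29, 0.37 and 0.33 FPKM in Δ*ku70*, a log2 difference of 4.60 (standard error 0.42, adjusted p = 0.00384, limma). POX08696 had 48.14, 58.27 and 32.55 FPKM in Δ*rsrB* and 1.33, 3.13 and 0.30 FPKM in Δ*ku70*, a log2 difference of 4.31 (standard error 0.44, adjusted p = 0.00529, limma). Both genes were low in Δ*rsrA* as well, and POX08696 had 0.75 to 1.06 FPKM there.

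From POX08698 on, the same identifiers had intermediate levels in Δ*rsrA*. POX08698 had 509.58, 382.70 and 358.69 FPKM in Δ*rsrB*, 129.61, 138.65 and 107.16 FPKM in Δ*rsrA* and 21.32, 50.47 and 44.08 FPKM in Δ*ku70*. POX08702 had 464.72, 385.56 and 380.11 FPKM in Δ*rsrB*, 79.88, 75.72 and 54.85 FPKM in Δ*rsrA* and 29.85, 49.86 and 45.31 FPKM in Δ*ku70*. In these 2 and in POX08699, POX08700 and POX08703, the 3 strains did not overlap, in the order Δ*rsrB*, Δ*rsrA* and Δ*ku70*, a pattern found in 0.768% of the 8464 genes that passed the limit in both comparisons with Δ*ku70*. The pattern was not set in advance, and its share is a description without a test. The log2 differences between Δ*rsrB* and Δ*ku70* of the 5 genes were 2.73 (POX08703) to 3.97 (POX08699), with adjusted p of 0.00127 to 0.0136 (limma). The longest run of numbers with a difference of 3 or more in Δ*rsrB* anywhere in the lists was POX08698 to POX08700. It ended at POX08701, which is not in the lists, and POX08702 beyond it had a difference of 3.29. Without any 1 Δ*rsrB* replicate, POX08699 and POX08700 had an adjusted p of 0.0613 to 0.0831 (limma), and 5 flanking identifiers in all were raised in place of 8.

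In Δ*rsrA* the rise of these 5 genes was smaller, and the call depended on the scaling. POX08698 (log2 difference 1.75, standard error 0.33, adjusted p = 0.00922, limma) and POX08700 (1.70, standard error 0.49, adjusted p = 0.0371, limma) passed the test, whereas POX08699, POX08702 and POX08703 had differences of 1.45, 0.75 and 0.56 with adjusted p of 0.0520 to 0.0634 (limma). After median-of-ratios scaling of the libraries, all 5 passed, with differences of 0.84 to 2.07. The call of POX08700 was lost without any 1 of the Δ*rsrA* replicates, with adjusted p of up to 0.118 (limma), and without Δ*ku70* replicate 3. Its difference was 1.13 when Δ*ku70* replicate 1 was left out. The call of POX08699 was gained without Δ*ku70* replicate 1 (0.87, adjusted p = 0.0189, limma) and without replicate 2 (1.84, adjusted p = 0.0485, limma), and that of POX08703 without Δ*ku70* replicate 2 (0.70, adjusted p = 0.0419, limma).

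**Figure D3:**
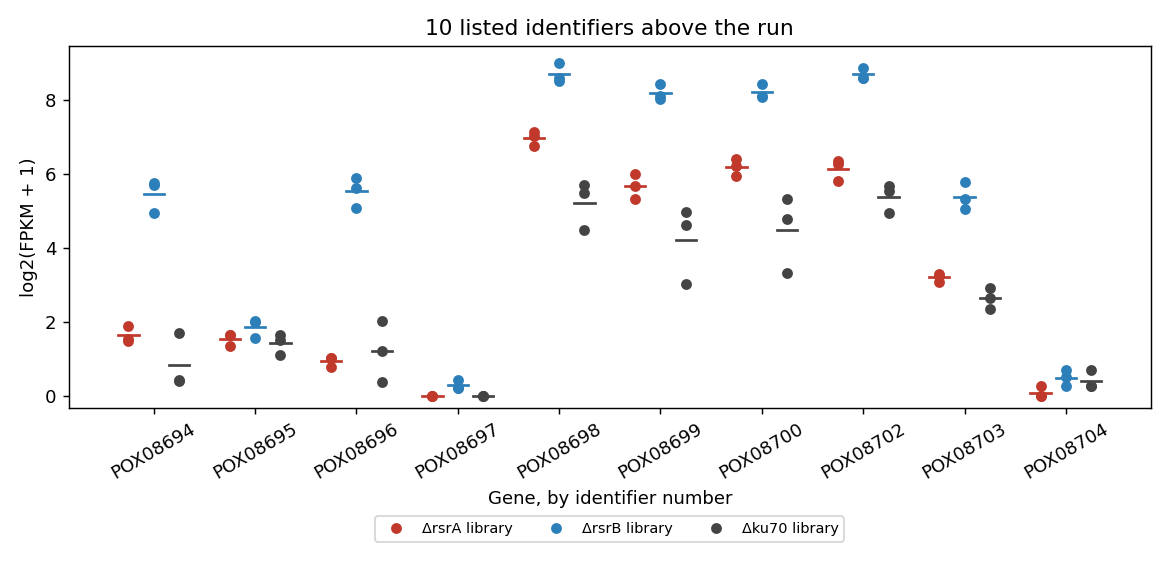
log2(FPKM + 1) of the 10 listed identifiers after the run in each library of Δ*rsrA*, Δ*rsrB* and Δ*ku70* (points, 3 libraries per strain, with a line at the mean). At 5 genes from POX08698 to POX08703 the strains are separate, with Δ*rsrB* highest and Δ*ku70* lowest.

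No other run of its direction came near this length. The 62 genes with a difference of 3 or more in Δ*rsrA* formed 50 single genes, 2 pairs and the run of 8. In the opposite direction, 125 genes with a difference of -3 or less formed 85 single genes, 12 pairs, 2 runs of 3, a run of 4 (POX01692 to POX01695) and a run of 6 (POX01179 to POX01184). In Δ*rsrB*, the 27 genes with a difference of 3 or more and the 37 with -3 or less formed no run longer than 3. A number absent from the lists ended a run, as POX08701 did after POX08700. These numbers describe the lists and were not tested.

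**Figure D4:**
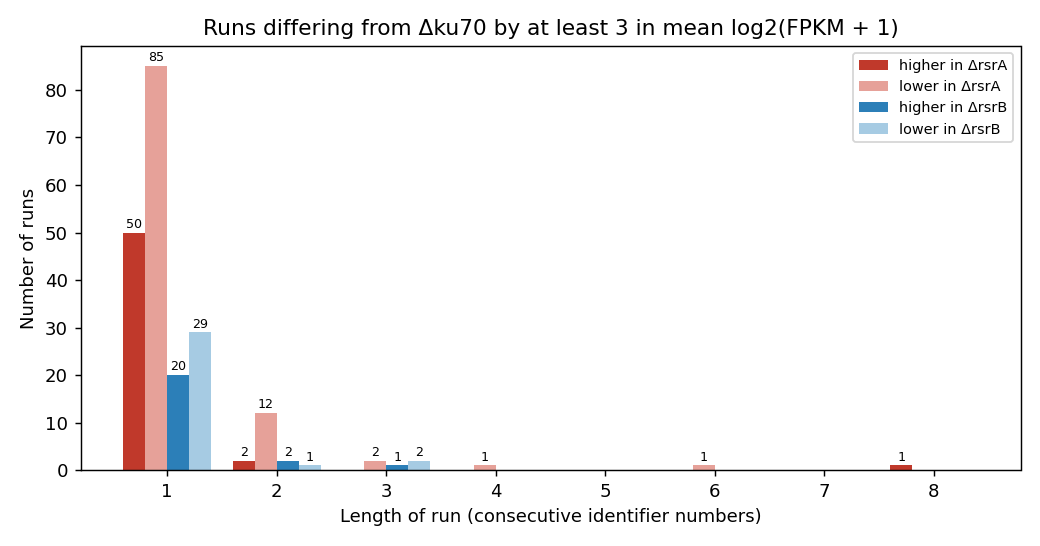
Number of runs by their length in consecutive identifier numbers, for genes whose mean log2(FPKM + 1) differs from Δ*ku70* by at least 3, higher or lower in Δ*rsrA* and in Δ*rsrB*. The run of 8 is the longest, and the next, of 6, is lower in Δ*rsrA*.

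The genes elsewhere in the lists with the most similar pattern were found by the Pearson coefficient of log2(FPKM + 1) with the mean standardised profile of the members over the 9 libraries. Such a coefficient mainly reflects the contrast between Δ*rsrA* and the other 2 strains. The members themselves had coefficients of 0.992 to 0.999, which describe them only, since they make up that profile. The 5 most similar others were POX05281, POX07964, POX03581, POX01013 and POX08354, with coefficients of 0.998 to 0.996. POX07964 had a mean of 1930.4 FPKM in Δ*rsrA*, against 74.0 FPKM in Δ*rsrB* and 62.5 FPKM in Δ*ku70*, and POX05281 had 918 FPKM in Δ*rsrA*, against 201 and 196 FPKM. None of the 5 has a number within the flanks of the run. The choice of these genes rests on the measure, and Spearman's coefficient gave 5 others.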

How the data were processed

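Poly(A) RNA of *P. oxalicum* was sequenced at BGI, and the authors deposited 1 list of FPKM values per library, rounded to hundredths. BWA, Bowtie2, RSEM and NOISeq are named in the paper's methods, and bcl2fastq and HISAT2 in the submitters' processing notes, and the step of each is not given in the sources used here. FPKM values are no counts, so no count test was used. Strains and replicate numbers came from the sample titles. The paper calls the libraries of a strain biological replicates, and no source used here says what libraries with the same number share.

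Genes whose FPKM averaged 1 or more over the 6 libraries of a comparison were tested on log2(FPKM + 1) in R 4.3.3 with limma 3.58.1 (lmFit, eBayes with trend), with Benjamini-Hochberg adjustment and a threshold of 0.05. The steps were run on simulated data with the same spread for every gene and library, which these data do not have. The named genes are the members, the 10 listed identifiers on each side, the 5 most similar others and the deleted genes. The members and lists were chosen with earlier results of these data known, and POX02475, POX08681, POX08682, POX08684 and the other runs were named after their values had been seen. The order of the strains in the identifiers after the run was likewise not planned.

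Alternatives were a pseudocount of 0.1, other filters and scalings, a joint fit of all 9 libraries, a block for the replicate number, limits of 2 and 4 for the run, other measures of likeness, and leaving out each library in turn.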

Additional observations from a re-analysis of the deposited data

How the results depend on the processing

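The run kept its length of 8 under 14 alternatives, and 0 members were called in Δ*rsrB* under each of the 14 tried there. The 8 differences between Δ*rsrA* and Δ*ku70* stayed between 5.87 and 11.50. The count of flanking identifiers raised in Δ*rsrA* (3, with the 2 next to the run left aside) was 5 with equal totals, with quantile normalization and with 1 fit over all 9 libraries, and 6 with the median of ratios, where 1 in place of 3 was lowered. Leaving out each library in turn gave 2 to 5 raised and 1 to 3 lowered in Δ*rsrA*, and 5 to 10 raised in Δ*rsrB* (8 with all libraries). Flanking identifiers lowered in Δ*rsrB* numbered 0 throughout. The count of 10 came without Δ*ku70* replicate 1, where the 8 stayed called and the rest had been under the limit on low values. For each of the other shifts the cause was not tested.

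Same-numbered libraries of a mutant and Δ*ku70* did not all deviate together, with r of -0.06 to 0.09 for Δ*rsrA* with Δ*ku70* and -0.17 to 0.26 for Δ*rsrB* with Δ*ku70*, and 0 and 3 of the 6 libraries correlated best with their own number, so the numbers were not taken to pair these strains. For Δ*rsrA* with Δ*rsrB*, r was 0.581, 0.101 and 0.470, each over 0.1, and no block was fitted because the members' differences there are described without a test. With the replicate block, 3 flanking identifiers were raised and 2 lowered in Δ*rsrA*, 6 were raised in Δ*rsrB*, and 0 members were called. Of the values of single genes, 562 kept their call, or stayed within the spread between replicates, over the alternatives, 34 lost a call, 12 gained one and 23 descriptive values moved by more than that spread. Part of the 562 was fixed in advance, since a change of filter leaves a described difference as it was. The 562 also include genes that were not called under either setting. Of the 5 most similar genes, 5 were shared with the median of ratios, 3 with a pseudocount of 0.1 and 0 with Spearman's coefficient. Read numbers are unknown, so counting error limits values near or under 1 FPKM by an unknown amount.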
